A study of Mus musculus with 12 samples.

Results

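The glucocorticoid receptor genes and genes responsive to glucocorticoids were examined in somatosensory cortex from infant mice. The set was a list of 10 gene symbols, and all 10 were found among the 24452 symbols in the deposited count files. It held the receptor genes Nr3c1 and Nr3c2, the receptor co-chaperone gene Fkbp5 and 7 other responsive genes (Sgk1, Tsc22d3, Zbtb16, Klf9, Pdk4, Errfi1 and Hif3a). The estimated counts of their 18 RefSeq transcripts were summed per symbol, and all 10 genes passed the low-count filter that left 14739 genes for testing.

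Stranded RNA-Seq had been performed on 12 libraries from male C57BL/6 mice on postnatal day 7, with 3 libraries in each of 4 groups. Wildtype (WT) and p53 knockout (KO) pups had received repeated intraperitoneal injections of ethanol or saline, and the cortex was taken 8 hours after the last injection. The KO pups were homozygous for a constitutive, targeted Trp53 allele (Trp53tm1Tyj) and came, like the WT pups, from matings of heterozygotes. Each library is named here by its group and its number in the sample descriptions, and no number occurs in more than 1 group. The study describes separate RNA samples per group, and its laser and hole-punch dissections could not be assigned to libraries. The labels do not say whether libraries came from separate animals, so p-values measure the spread between these samples.

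Glucocorticoids are adrenal steroids that are released under stress, and in mice the main one is corticosterone. They bind the glucocorticoid receptor (GR, encoded by Nr3c1) and, with higher affinity, the mineralocorticoid receptor (MR, encoded by Nr3c2), which wait in the cytoplasm in complexes with Hsp90 and co-chaperones. The bound receptors enter the nucleus and act on DNA elements made of paired hexamers, which raises the transcription of genes such as Fkbp5, Sgk1, Tsc22d3 and Klf9. In the brain MR is known for its enrichment in limbic regions and GR for its wide distribution, and the FKBP5 protein feeds back by lowering the hormone affinity of GR.

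The receptors' hexamer was looked up in the promoter windows that RefSeq provides for GRCm38.p6, each with 250 bases before and 50 bases after a transcript start. The letters searched were AGAACA and its reverse complement TGTTCT on either strand, and the full site was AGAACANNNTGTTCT. Of 32851 windows in all, 19.0% held at least 1 hexamer and 3 windows (0.00913%) held the full site. There were 16 windows for 8 of the members. Nr3c1 and Zbtb16 were not examined. A hexamer was present in 4 of the 16 windows, 3 of them at Sgk1 and 1 at Tsc22d3. The window at the start of Sgk1 transcript NM_001161850, at chr10:21993640-21993939 on the plus strand, held 3 hexamers, of which the pair at -189 and -180 formed the full site. It is shown with the windows of Klf9 (chr19:23140976-23141275, plus strand) and Nr3c2 (chr8:76902080-76902379, plus strand), the members with the lowest p-values in the comparisons that follow. Capitals mark the hexamers.
Sgk1 NM_001161850: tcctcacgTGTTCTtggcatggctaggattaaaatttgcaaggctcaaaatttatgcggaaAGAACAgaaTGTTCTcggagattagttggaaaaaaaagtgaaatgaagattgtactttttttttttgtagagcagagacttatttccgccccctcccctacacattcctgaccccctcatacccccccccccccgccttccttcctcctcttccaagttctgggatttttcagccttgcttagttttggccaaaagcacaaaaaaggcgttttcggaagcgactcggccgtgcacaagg
Klf9: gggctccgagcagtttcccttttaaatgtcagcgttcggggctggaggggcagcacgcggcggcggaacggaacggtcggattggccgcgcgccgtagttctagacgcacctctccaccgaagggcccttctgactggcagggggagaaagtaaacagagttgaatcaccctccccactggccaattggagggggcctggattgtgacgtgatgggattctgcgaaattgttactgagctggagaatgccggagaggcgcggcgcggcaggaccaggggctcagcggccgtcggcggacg
Nr3c2: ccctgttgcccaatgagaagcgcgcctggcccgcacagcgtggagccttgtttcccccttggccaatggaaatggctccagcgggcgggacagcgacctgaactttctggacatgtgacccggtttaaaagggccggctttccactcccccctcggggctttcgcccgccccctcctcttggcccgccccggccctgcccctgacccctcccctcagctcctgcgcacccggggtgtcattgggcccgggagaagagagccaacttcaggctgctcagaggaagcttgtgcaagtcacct
The Klf9 and Nr3c2 windows held none of these letters, and a match here is a description of the sequence alone.

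The libraries differed widely in depth and composition. Total estimated counts ranged from 719735 in KO ethanol 12 and 1953154 in WT saline 3 to 17066392 in KO saline 8, a ratio of 23.7, and these 2 shallow libraries are also the 2 whose names carry the letter L in place of P. In KO ethanol 12 a count of 3 corresponded to 5.01 normalized CPM (CPM, counts scaled to a common library total with TMM factors, the unit used for levels here), so that Zbtb16 at 0 counts there allows a level up to that value by counting error alone. The rank correlation of a gene's deviation from its mean with transcript length ran from -0.39 in WT saline 1, -0.35 in WT saline 13 and -0.31 in KO ethanol 12 to 0.52 in KO saline 9. Summed red blood cell markers (5 genes) lay between 337 and 1319 normalized CPM in WT saline and at 765 in KO ethanol 12, but between 29.0 and 145 in the other 8 libraries. Summed choroid plexus markers (4 genes) lay between 1.67 and 4997, and summed neuron markers (5 genes) between 3686 and 6003 in WT saline, at 5563 in KO ethanol 12 and between 2112 and 2936 in the other 8. Tubb3 alone made 2823 to 4693 of the neuron sums in WT saline, 4284 in KO ethanol 12 and 1020 to 1537 in the other 8. Gad1 went the other way, at 74.0 to 95.0 in WT saline, 63.5 in KO ethanol 12 and 96.8 to 172 in the other 8. Rbfox3, Snap25 and Slc17a7 overlapped between these libraries. Trp53 itself was counted at 3.67, 26.2 and 14.4 in WT saline, 14.8, 7.23 and 20.0 in WT ethanol, 27.6, 11.1 and 11.7 in KO saline and 28.1, 23.4 and 28.7 in KO ethanol. Its gene-level total does not separate the exons lost in the KO allele from those kept, so it does not check the genotype labels. The transcript NM_001127233 received between 48.3% and 70.6% of the Trp53 counts in 5 KO libraries and between 7.01% and 23.1% in the 6 WT libraries. KO ethanol 12, with 14 Trp53 counts, had 7.01%. WT saline 1, WT saline 3 and WT ethanol 5 had the same share at 20, 51 and 78 counts. A share that stays fixed over such counts carries no separate information on the transcripts. This measure therefore does not check the genotype label of KO ethanol 12.

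Nr3c2 and Klf9 were higher after ethanol than after saline in WT mice and were also higher in saline-treated KO mice than in saline-treated WT mice. Pdk4 was higher after ethanol in WT mice, and in saline Errfi1 was lower and Zbtb16 higher in KO than in WT mice. None of the 10 genes passed the test between ethanol and saline in KO mice. Genes were called at an adjusted p under 0.30 (edgeR quasi-likelihood test, Benjamini-Hochberg over 14739 genes). This was the study's level for ethanol in WT mice and for its main and interaction effects. For ethanol in KO mice the study set no such level and ranked genes by unadjusted p. No member reached an adjusted p under 0.05 in any of the 6 contrasts. The plot of the members by library shows all their values.

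**Figure D1:**
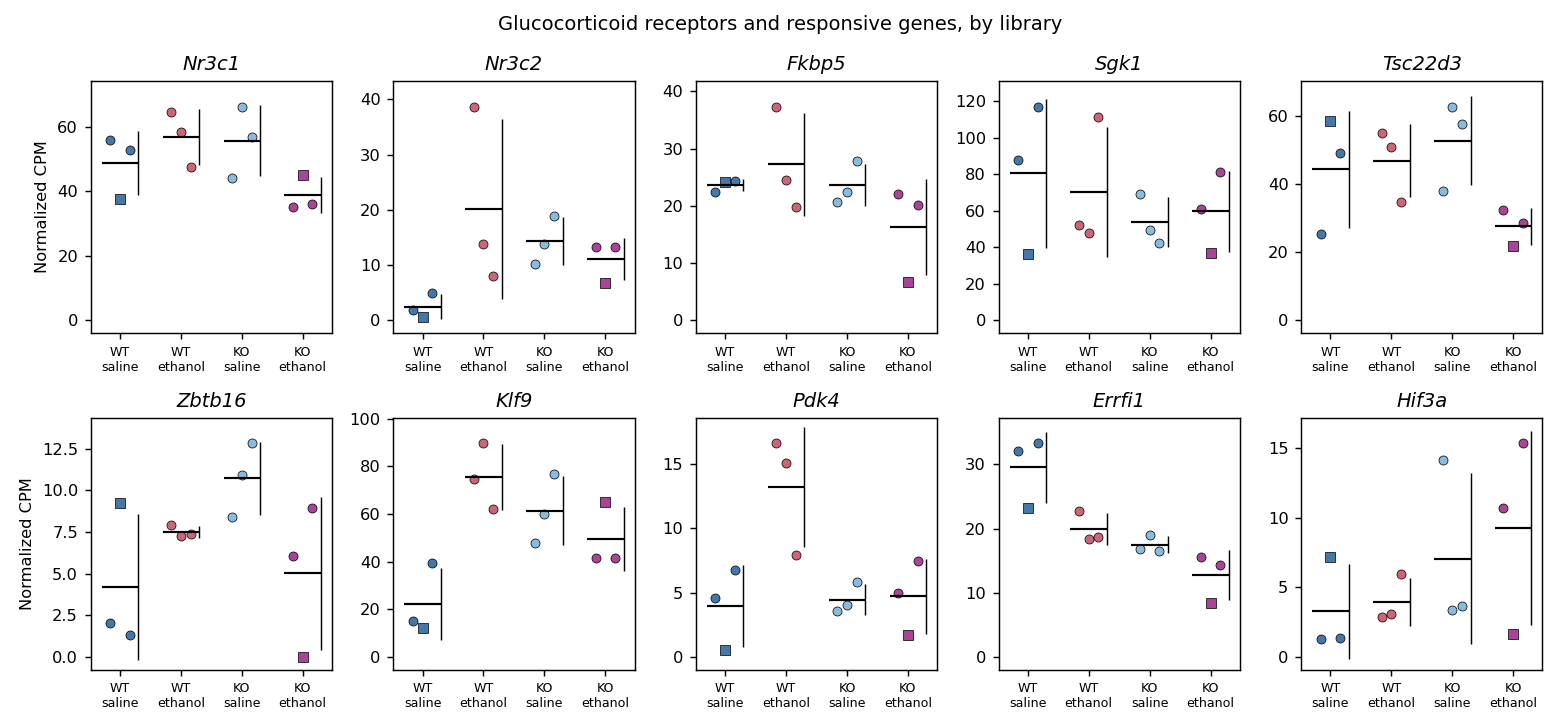
Normalized CPM of each member (y axis, a linear scale per gene) in the 12 libraries by group (x axis). Points are libraries (squares are the 2 libraries named with L), horizontal bars are group means and vertical bars show ±1 SD (n = 3). The WT saline points of Nr3c2 and Klf9 lie below all other points of those genes, and those of Errfi1 above.

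The glucocorticoid receptor gene Nr3c1 was the steadier of the receptor genes. Its level was 56.0, 37.5 and 52.8 normalized CPM in WT saline 1, 3 and 13, and 64.7, 58.3 and 47.6 in WT ethanol 4, 5 and 14. It was 44.3, 66.3 and 56.8 in KO saline 7, 8 and 9, and 35.3, 45.1 and 36.2 in KO ethanol 10, 12 and 18. The groups overlapped, except that the 3 KO ethanol libraries all lay below the 3 of WT ethanol. The log2 fold change after ethanol was 0.22 ± 0.31 (SE) in WT and -0.54 ± 0.32 in KO mice, and it passed no test (adjusted p from edgeR = 0.724 and 0.999). Its sign in WT mice turned to -0.41 when each library's trend over transcript length and GC was removed. With library size and no TMM factors Nr3c1 was called in WT mice after ethanol (0.70, edgeR adjusted p = 0.238). The same scaling called it for KO against WT mice in saline (0.67, adjusted p = 0.254) and in the Genotype x Treatment interaction (-1.24, adjusted p = 0.237). The interaction was also called with a minimum of 10 counts per library (-0.91, edgeR adjusted p = 0.245).

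The mineralocorticoid receptor gene Nr3c2 (chr8:76902508-77243639, GRCm38) had group means from 2.42 to 20.2 normalized CPM, against 38.9 to 56.8 for Nr3c1. It was counted at 1.84, 0.514 and 4.90 normalized CPM in WT saline 1, 3 and 13, where the counts behind these levels were 10, 1 and 66. It stood at 38.7, 13.8 and 8.08 in WT ethanol, at 10.2, 13.8 and 18.9 in KO saline, and at 13.3, 6.69 and 13.3 in KO ethanol. Every library outside WT saline was thus above every WT saline library, and WT ethanol 4 was the highest of all. The lowest of these, KO ethanol 12 at 6.69, rests on 4 counts, near that library's floor of 5.01, and lies next to WT saline 13 at 4.90. Its log2 fold change was 2.87 ± 0.68 for ethanol against saline in WT mice (edgeR adjusted p = 0.125) and 2.37 ± 0.67 for KO against WT mice in saline (adjusted p = 0.176). Ethanol and saline libraries overlapped in KO mice, with a log2 fold change of -0.28 ± 0.63 (edgeR adjusted p = 0.999).

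Because levels per transcript length can be compared between genes, the receptors were also set against each other in the deposited RPKM values. The deposited RPKM values have the same median and maximum, and nearly the same upper quantiles, over transcripts in all 12 libraries, so they are values forced to 1 common distribution, and low values in shallow libraries depend on it. Nr3c2 amounted to 6.51%, 5.22% and 16.9% of the RPKM of Nr3c1 in the WT saline libraries. The same ratio was 92.0%, 37.1% and 26.0% in WT ethanol, 35.0%, 32.4% and 49.3% in KO saline, and 56.8%, 30.9% and 54.0% in KO ethanol. The 3 WT saline values were the lowest of the 12, and among the other 9 libraries the groups overlapped.

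**Figure D2:**
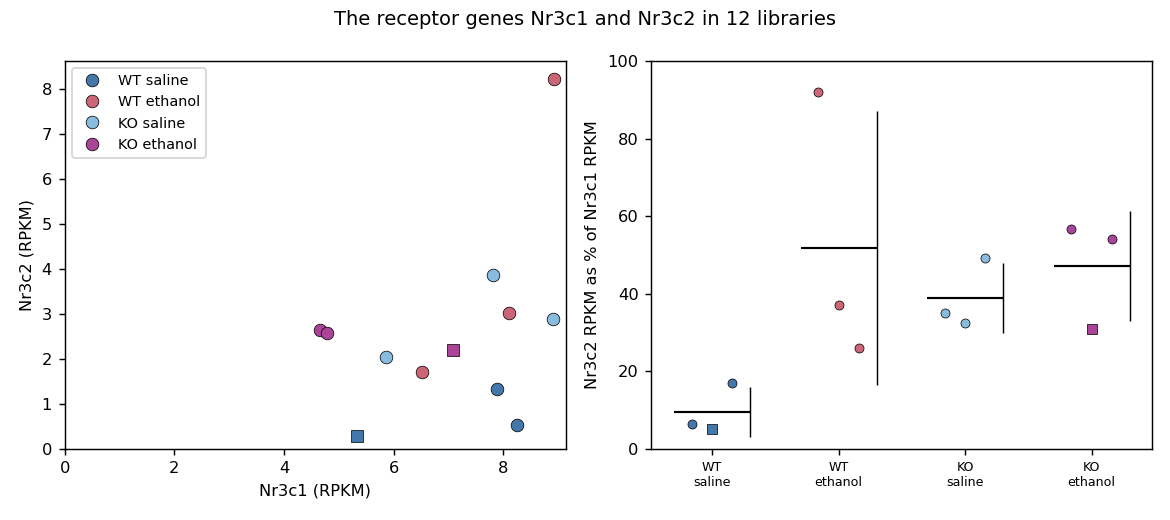
Left, RPKM of Nr3c2 (y axis) against RPKM of Nr3c1 (x axis) in 12 libraries. Right, Nr3c2 RPKM as a percentage of Nr3c1 RPKM by group, with bars for the mean and ±1 SD (n = 3) and squares for the libraries named with L. WT saline averages 9.54% and the other groups between 38.9% and 51.7%.

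Fkbp5, which encodes the co-chaperone that restrains GR and is a textbook reporter of glucocorticoid exposure, passed no test in any contrast. Its levels were 22.4, 24.2 and 24.3 normalized CPM in WT saline, and 37.3, 24.6 and 19.8 in WT ethanol. They were 20.7, 22.5 and 27.8 in KO saline, and 22.1, 6.69 and 20.2 in KO ethanol, where the low value comes from 4 counts in KO ethanol 12. The log2 fold change after ethanol was 0.21 ± 0.40 in WT (edgeR adjusted p = 0.803) and -0.43 ± 0.40 in KO mice (adjusted p = 0.999), so no change was detectable in either genotype.

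Sgk1 encodes a kinase that acts on ion channels and transporters and is induced by both receptors. It had 87.8, 36.5 and 117 normalized CPM in WT saline, 52.1, 47.8 and 112 in WT ethanol, 69.0, 49.7 and 42.5 in KO saline, and 61.0, 36.8 and 81.0 in KO ethanol. All 4 groups overlapped, with log2 fold changes after ethanol of -0.20 ± 0.46 in WT and 0.18 ± 0.47 in KO mice (edgeR adjusted p = 0.843 and 0.999). Of its 6 transcripts, NM_001161850, whose start window carries the full site printed earlier, received between 0.3% and 5.7% of the gene's counts in a library. NM_011361 received between 35.2% and 64.5% in the 10 libraries named with P, but 20.7% in WT saline 3 and 3.5% in KO ethanol 12, the shallow libraries named with L. The estimated counts of NM_001161850 kept 1 proportion to those of NM_001161847 in WT saline 1, 3 and 13, KO saline 9 and KO ethanol 12 and 18. They were 1.97 and 1.38 in WT saline 1, and 4.82 and 3.37 in WT saline 13. In these libraries its share carries no separate information on that start.

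Tsc22d3 encodes GILZ, an anti-inflammatory mediator of glucocorticoids. Its levels were 25.4, 58.6 and 49.2 normalized CPM in WT saline, 55.1, 51.1 and 34.8 in WT ethanol, 37.9, 62.8 and 57.8 in KO saline, and 32.4, 21.7 and 28.7 in KO ethanol. In KO mice the 3 ethanol libraries lay below the 3 saline libraries, and the log2 fold change of -0.91 ± 0.38 had an unadjusted p of 0.0322 in the edgeR fit but an adjusted p of 0.999. In WT mice the groups overlapped, with a log2 fold change of 0.09 ± 0.38 (edgeR adjusted p = 0.918). With the most abundant transcript alone, the WT value was -0.95.

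Klf9 encodes a zinc finger repressor that is a direct target of GR and MR in neurons. It was counted at 14.9, 12.3 and 39.6 normalized CPM in WT saline, 74.6, 89.6 and 62.0 in WT ethanol, 47.6, 59.8 and 76.6 in KO saline, and 41.7, 65.2 and 41.6 in KO ethanol. As for Nr3c2, all 9 libraries outside WT saline were above the 3 WT saline libraries, although WT saline 13 (39.6) came close to the lowest of them, KO ethanol 18 (41.6). Its log2 fold change was 1.73 ± 0.44 for ethanol in WT mice (edgeR adjusted p = 0.139), 1.43 ± 0.43 for KO against WT mice in saline (adjusted p = 0.176) and -0.34 ± 0.43 for ethanol in KO mice (adjusted p = 0.999). Klf9 lies on chromosome 19 (chr19:23141226-23166911, GRCm38).

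Pdk4 encodes the kinase that inhibits pyruvate dehydrogenase and so spares glucose. Its levels were 4.59, 0.514 and 6.76 normalized CPM in WT saline and 16.6, 15.1 and 7.90 in WT ethanol, with no overlap between the groups. They were 3.54, 4.04 and 5.79 in KO saline and 4.97, 1.67 and 7.48 in KO ethanol, all below each WT ethanol library. The value of WT saline 3 rests on 1 count and that of KO ethanol 12 likewise on 1. For Pdk4 the log2 fold change was 1.62 ± 0.63 for ethanol in WT mice (edgeR adjusted p = 0.22) and 0.27 ± 0.63 in KO mice (adjusted p = 0.999), and 0.05 ± 0.62 for KO against WT mice in saline (adjusted p = 0.976).

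Errfi1 encodes an inhibitor of EGF receptor signaling. It was highest in WT saline, at 32.2, 23.1 and 33.3 normalized CPM, against 22.8, 18.3 and 18.6 in WT ethanol, 16.9, 19.0 and 16.6 in KO saline, and 15.6, 8.36 and 14.3 in KO ethanol. In these TMM-scaled levels (factor 0.564 in WT saline 1) all 3 WT saline libraries lay above the other 9, but WT saline 3 (23.1) was close to WT ethanol 4 (22.8). For Errfi1 the log2 fold change was -0.76 ± 0.34 for KO against WT mice in saline (edgeR adjusted p = 0.239) and -0.57 ± 0.34 for ethanol in WT mice, which was not called (adjusted p = 0.363). With library size and no TMM factors the saline value was -0.28 and not called (edgeR adjusted p = 0.70). The saline call was also lost in both limma fits (adjusted p = 0.348 and 0.384), without the low-count filter (edgeR, 0.322) and with only the groups compared (edgeR, 0.322).

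Zbtb16, which encodes the transcription factor PLZF, and Hif3a, which encodes a hypoxia-inducible factor subunit, were among the members with low counts. Zbtb16 had 2.02, 9.26 and 1.34 normalized CPM in WT saline, 7.93, 7.23 and 7.38 in WT ethanol, 8.41, 10.9 and 12.8 in KO saline, and 6.08, 0 and 8.94 in KO ethanol. WT saline 3, with 18 counts, lay among the other groups and apart from the other 2 WT saline libraries. The log2 fold change of Zbtb16 for KO against WT mice in saline was 1.54 ± 0.74 (edgeR adjusted p = 0.263) and 2.67 without WT saline 3 (adjusted p = 0.026). It was called in 5 of 12 fits with 1 library left out, and the edgeR adjusted p was 0.544 without WT saline 1 or WT saline 13, 0.303 without WT ethanol 5, 0.319 without KO ethanol 10 and between 0.352 and 0.478 without KO saline 7, 8 or 9. Neither limma fit called it. Hif3a had 1.29, 7.20 and 1.34 in WT saline, 2.89, 3.06 and 5.97 in WT ethanol, 14.2, 3.34 and 3.68 in KO saline, and 10.7, 1.67 and 15.4 in KO ethanol. Its groups overlapped throughout, and no contrast called it. The authors' quantification gave its 2 transcripts 55.5% and 44.5% of the counts in every library, so the transcripts carry no separate information.

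Per transcript length the members spanned a wide range, and the place of Klf9 in their order differed most visibly. In WT saline the median RPKM was highest for Sgk1 (30.1) and Tsc22d3 (23.0), whose ranges overlapped, and Klf9 ranked sixth at 4.76. In WT ethanol Klf9 ranked second at 22.3, between Tsc22d3 (23.6) and Sgk1 (16.6), and the ranges of these 3 neighbors overlapped. Hif3a ranked last in all groups but KO ethanol, where it stood at 1.15 and Zbtb16 was last at 0.886.

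Ethanol against saline in WT mice thus called 3 members (Nr3c2, Klf9 and Pdk4), all higher, where 22.5% of all genes tested were called and 12.1% were called higher. The median log2 fold change of the 10 members was 0.35, beside 0.06 over all genes. In 4 members (those 3 and Errfi1) the WT ethanol and WT saline libraries did not overlap, which held for 19.5% of all genes. Whether these members passed the adjusted level changed with single libraries and with the pooled estimate of spread, as did the number of all genes called. In a fit of the WT libraries alone no member was called (edgeR adjusted p = 0.346 for Nr3c2 and Klf9 and 0.378 for Pdk4), and 39 genes were called in all, against 3310 in the fit of 12 libraries. Without WT saline 1 none of the members was called (Nr3c2 at an edgeR adjusted p of 0.31, Klf9 at 0.346, Pdk4 at 0.424), and without WT ethanol 4 none was called either (0.443, 0.364 and 0.519). Without WT ethanol 14 the adjusted p of Pdk4 was 0.304. Without WT saline 3 the called members were 6 (Zbtb16, Errfi1 and Hif3a in addition), and without both libraries named with L they were 7 (also Sgk1, at -0.61). The calls over all genes rose as well, to 7304 without WT saline 3 and to 8295 without both libraries named with L. Over the 12 fits with 1 library left out, the log2 fold changes lay between 1.96 and 3.90 for Nr3c2 and between 1.40 and 2.46 for Klf9. The lack of overlap between the groups left little room there for a change of sign.

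**Figure D3:**
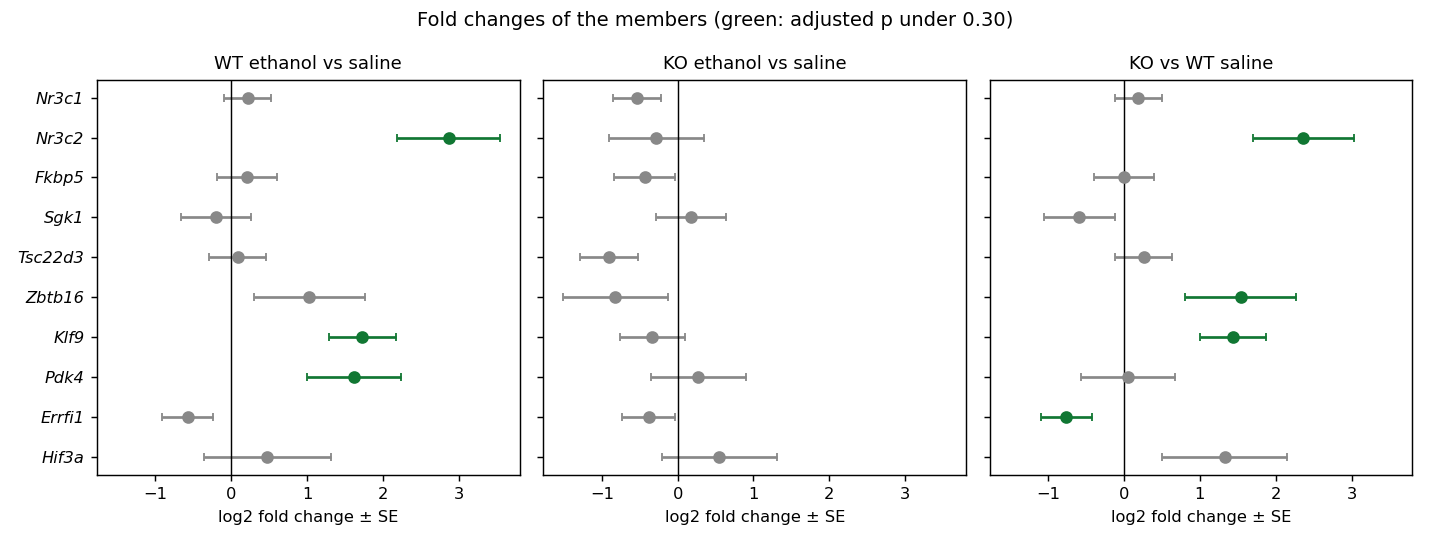
The log2 fold change of each member (x axis, points with ±1 SE from the edgeR fit of 12 libraries) in 3 contrasts. Green points have an adjusted p under 0.30: 3 in WT ethanol against saline, none in KO ethanol against saline and 4 in KO against WT saline.

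Ethanol against saline in KO mice called no member and no gene at all in edgeR (0.0% of those tested). Before adjustment 1 member, Tsc22d3, lay under a p of 0.05, beside 3.15% of all genes. DESeq2 called 3 genes and limma on RPKM values called 0, neither called a member, and each placed 1 member under the unadjusted level. The median log2 fold change of the members was -0.36, with 7 of the 10 fitted lower, beside a median of 0.008 over all genes. The libraries of 2 members (Tsc22d3 and Errfi1) did not overlap between the groups, which held for 10.8% of all genes.

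Between the genotypes in saline 4 members were called, Nr3c2, Klf9 and Zbtb16 higher and Errfi1 lower in KO mice, where 25.8% of all genes were called (12.4% higher and 13.4% lower). This contrast uses the same 3 WT saline libraries as the ethanol contrast in WT mice, so the values of Nr3c2 (2.37 here and 2.87 there), Klf9 (1.43 and 1.73) and Errfi1 (-0.76 and -0.57) are not independent of each other. The libraries of KO saline and WT saline did not overlap for 3 members (Nr3c2, Klf9 and Errfi1), which held for 22.9% of all genes. A position of all 3 WT saline libraries below the other 9, as in Nr3c2 and Klf9, was found in 2.33% of all genes, and the opposite position, as in Errfi1, in 1.4%. No member was called without WT saline 1, without KO saline 8 or without KO saline 9 (Nr3c2 at edgeR adjusted p of 0.404, 0.357 and 0.432), and 6 were called without WT saline 3. The members called were 2 without KO saline 7 and 2 without WT saline 13. Over all genes, the fits of this contrast with 1 library left out called between 9 and 7556.

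After ethanol no member was called between the genotypes, and edgeR called no gene (0.0%). No member had an unadjusted p under 0.05, beside 3.24% of all genes, while DESeq2 and limma on log2(RPKM + 1) each placed 1 member under that level. DESeq2 called 3 genes here and limma 0 or 1, depending on the pseudocount, but no member. The lowest unadjusted p in edgeR was 0.058, for Pdk4, with a log2 fold change of -1.30 ± 0.63. Libraries of the genotypes did not overlap for 4 members (Nr3c1, Tsc22d3, Pdk4 and Errfi1, all lower in KO mice), which held for 12.7% of all genes.

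The main effect of Treatment, the mean of the ethanol effects in both genotypes, called no member, and 0.00678% of all genes (1 gene) were called. Nr3c2 (1.29 ± 0.46), Klf9 (0.70 ± 0.30) and Pdk4 (0.95 ± 0.44) were under an unadjusted p of 0.05, beside 7.09% of all genes. Without WT saline 3 there were 4 members called, and without both libraries named with L there were 6, while DESeq2 called 1. Over all genes, between 0 and 3493 were called with 1 library left out, 6885 without both libraries named with L and 267 in DESeq2.

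The Genotype x Treatment interaction (the ethanol effect in KO minus that in WT mice) called 2 members, Nr3c2 at -3.15 ± 0.92 and Klf9 at -2.07 ± 0.61, each with an edgeR adjusted p of 0.25, where 11.1% of all genes were called (5.43% in this direction). The next lowest p belonged to Tsc22d3 (-0.996 ± 0.54, edgeR adjusted p = 0.397) and Zbtb16 (-1.85 ± 1.01, adjusted p = 0.402). Neither Nr3c2 nor Klf9 was called without WT saline 1, WT ethanol 4, KO saline 8, KO saline 9 or KO ethanol 12, and Klf9 was not called without WT ethanol 14. Both were also lost with the name letter as a covariate (edgeR adjusted p = 0.479) and in limma on RPKM values (adjusted p between 0.313 and 0.384). Leaving out WT saline 3 gave 4 calls, with Tsc22d3 and Zbtb16. Over all genes, the interaction fits with 1 library left out called between 0 and 5064.

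Other properties of the libraries moved with these calls. Genes called higher in WT ethanol than in WT saline had a median transcript length of 4339.5 bases and those called lower 1349, against 2957 for all genes. Nr3c2 measures 5675 bases, Klf9 4486, Pdk4 3484 and Errfi1 3043. With each library's trend over transcript length and GC removed, a correction chosen after the data were seen, the WT ethanol values were 2.07 for Nr3c2, 1.23 for Klf9, 1.39 for Pdk4 and -0.82 for Errfi1, and all 4 were called. After the same correction the KO against WT saline values were 1.58 for Nr3c2 (still called), -1.004 for Errfi1 (called) and 0.88 for Klf9 and 1.04 for Zbtb16 (neither called), and the interaction called neither gene (-1.97 for Nr3c2 and -1.04 for Klf9).

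Markers of other tissue components were not even across the groups either. All 5 red blood cell markers were lower in WT ethanol and in KO saline than in WT saline, and 3 of 4 choroid plexus markers were higher in WT ethanol and 2 of 4 in KO saline. Nr3c2 was highest in WT ethanol 4, which also had the highest choroid plexus sum (4997 normalized CPM, of which Ttr alone made 4919). It was next highest in KO saline 9 at 18.9, where this sum was 2249, and stood at 13.3 in KO ethanol 18, where it was 2211. Nr3c2 stood at 13.8 in WT ethanol 5 and KO saline 8, where these sums were 23.0 and 24.9. In WT saline 1, 3 and 13, where Nr3c2 was lowest, they were 16.7, 4.11 and 118. Astrocyte markers were called in 0 of 5 and oligodendrocyte markers in 0 of 5 in both contrasts. Of the 5 neuron markers Gad1 was higher in WT ethanol and Tubb3 lower in both contrasts. Flt1, an endothelial marker, was higher and the microglia markers C1qa and C1qb lower in both, and Col1a2, a fibroblast marker, was lower in KO saline. These lists were mixed in direction. In WT ethanol 4 of 5 endothelial and 2 of 5 microglia markers were fitted higher and the rest lower. In KO saline 2 of 5 endothelial, 1 of 5 microglia and 2 of 5 mural and fibroblast markers were fitted higher and the rest lower. In bulk tissue fewer cells of a type and less RNA per cell cannot be told apart, and the part of any of these properties in the members' values was not tested.

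Of 10 coregulators, which couple the bound receptors to transcription, 5 were higher in WT ethanol than in WT saline, and the same number was higher in KO than in WT saline, where 12.1% and 12.4% of all genes were called higher. The lowest p-values in WT ethanol belonged to the acetyltransferase gene Crebbp (log2 fold change 2.18 ± 0.47, edgeR adjusted p = 0.0967), Nrip1 (1.69 ± 0.54) and Ncoa2 (0.94 ± 0.36). Ncor1 and Med1 made up the 5. The median log2 fold change of the 10 coregulators was 0.89, and in KO mice after ethanol none was called and the median was -0.36. Over all genes these medians were 0.06 and 0.008. These 5 transcripts measure between 2627 bases (Med1) and 10820 (Crebbp), and the part of the length trend in their values was not tested. Crebbp stood at 5.14, 7.71 and 4.01 normalized CPM in WT saline and between 11.7 and 38.8 in the other libraries.

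Of 11 chaperones that hold the receptors ready for hormone, 2 were lower in WT ethanol, Ptges3 (-0.87 ± 0.39), which encodes p23, and Bag1 (-1.40 ± 0.63), beside 10.4% of all genes called lower. Dnajb1, Bag1 and Ptges3 were lower in KO saline, beside 13.4% of all genes. None of the 5 tested genes of steroid metabolism and export (6 listed) was called in any contrast, and Srd5a1 had the lowest p in WT ethanol (-0.56 ± 0.31, edgeR adjusted p = 0.337). Among 5 tested genes of the stress axis (7 listed) Crh, the corticotropin-releasing hormone gene, was lower in WT ethanol (-1.47 ± 0.53), with 4.59, 5.66 and 4.09 normalized CPM in WT saline and 0.963, 2.41 and 1.76 in WT ethanol. Crhr2 was called higher from 0, 0 and 0.669 to 2.77, 1.95 and 2.63.

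Outside the members, 24 further glucocorticoid-responsive genes were listed and 22 were tested. In WT ethanol 5 of them were called, all higher, beside 22.5% of all genes called and 12.1% called higher. Fam107a, a gene tied to the actin cytoskeleton, had 11.9, 12.3 and 17.4 normalized CPM in WT saline and 69.9, 39.6 and 39.3 in WT ethanol (log2 fold change 1.83 ± 0.40, edgeR adjusted p = 0.104). Irs2, an adaptor of the insulin receptor, had 0.919, 1.03 and 4.23 in WT saline and 36.1, 9.45 and 8.08 in WT ethanol (2.95 ± 0.71, edgeR adjusted p = 0.13). Rasd1 was at 0, 0 and 0.446 in WT saline and 17.4, 2.59 and 0.703 in WT ethanol, and its highest value was again that of WT ethanol 4. Mertk and Mt1 completed the 5. Per1 and Dusp1, immediate targets of GR, had log2 fold changes of 0.47 and 0.17 that were not called, and were added here after their values were seen.

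In KO mice after ethanol none of these 22 genes was called, and Mt1, a metallothionein gene, had the lowest p (1.45 ± 0.39, unadjusted p = 0.00211 in the edgeR fit, adjusted p = 0.999). Its levels were 44.0, 30.7 and 40.1 normalized CPM in KO saline and 85.3, 114 and 115 in KO ethanol, without overlap. Nfkbia was the other gene under an unadjusted p of 0.05 (0.82 ± 0.38). The median log2 fold change of the 22 genes was 0.36 in KO mice (20 fitted higher) and 0.45 in WT mice (16 fitted higher), whereas that of the 10 members was -0.36 and 0.35. Over all genes the median was 0.008 in KO and 0.06 in WT mice. For the main effect of Treatment 6 of the 22 were under an unadjusted p of 0.05, all higher, where 4.62% of all genes were, and none was called.

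**Figure D4:**
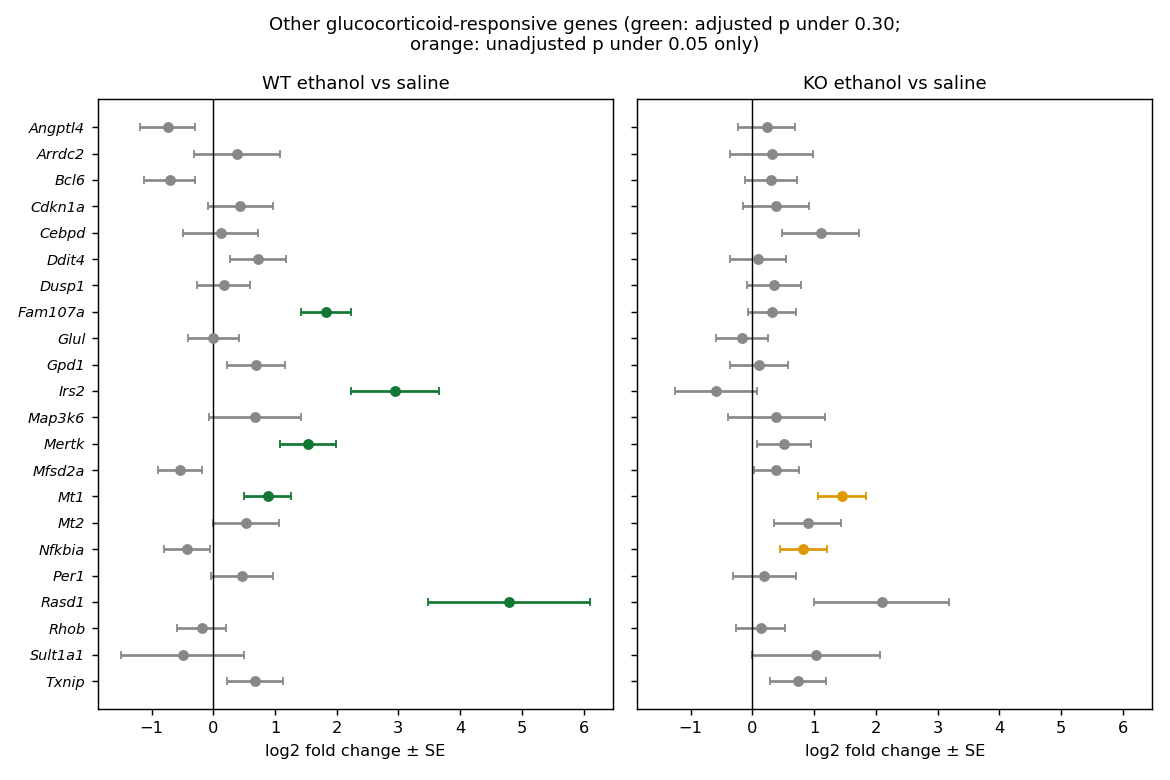
The log2 fold changes after ethanol (x axis, points with ±1 SE from edgeR) of 22 further glucocorticoid-responsive genes in WT mice (left) and KO mice (right). Green points have an adjusted p under 0.30 (5 in WT, 0 in KO) and orange points only an unadjusted p under 0.05 (Mt1 and Nfkbia in KO).

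The genes whose levels followed a member most closely were listed by the Pearson correlation of log2 CPM over the 12 libraries, which share the depth and length differences given earlier. Nr3c2 was followed most closely by Ptch1 (r = 0.970), Crebl2 (0.964) and Irs2 (0.963), Klf9 by Exoc4 (0.969), Wwc2 (0.951) and Opa3 (0.950), and Pdk4 by Sgms1 (0.931), Csf2rb (0.923) and Khdrbs2 (0.922). The closest to Nr3c1 were Slc39a10 (0.947), Akap11 (0.937) and Csrnp3 (0.932), and to Errfi1 Pcdhb17 (0.955), Mcm6 (0.952) and Lrp12 (0.945). For Fkbp5 they were Zfp516 (0.982), Fam84a (0.972) and Dpf3 (0.968), and for Tsc22d3 Adnp (0.949), Fitm2 (0.900) and Cdk5r1 (0.893). Sgk1 was matched less closely, by Prickle4 (0.897), Cdca4 (0.893) and Actl6a (0.893). The low-count members Zbtb16 (Ndst3 at 0.984, Hltf at 0.980 and Zfp397 at 0.976) and Hif3a (Nrbp2 at 0.978, Hexdc at 0.975 and Ubp1 at 0.974) had no member among their closest genes, and no other member was among the 3 closest of any member.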

How the data were processed

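RNA-Seq had been performed on 12 cortex libraries, and the authors aligned single-end reads to mm10 with Bowtie2 and quantified RefSeq transcripts in Partek Flow, giving deposited files of estimated counts and RPKM values for 35840 transcripts. Library totals of the estimated counts ran from 719735 to 17066392, and floors and intervals of counts cover counting error only. Estimated counts were summed per gene symbol, rounded, scaled by TMM and tested in edgeR 4.0.16 (R 4.3.3) with the quasi-likelihood test, filterByExpr, 4 group means and Benjamini-Hochberg adjustment over 14739 genes, in place of the study's two-way ANOVA. The SE given with an edgeR log2 fold change was derived from the test, as its absolute value divided by the square root of the F statistic. RPKM values, as deposited, share 1 distribution across libraries (a step not given in the sources used here) and served for levels between genes. The test was checked on simulated counts. Alternatives were DESeq2 1.42.0, limma 3.58.1, other filters and scalings, the name letter as a covariate, libraries left out and, added after the data were seen, removal of the length and GC trend. The members and gene lists were chosen with earlier results of these data known. Named genes were all members, the 3 genes with the lowest p of each other list, the 3 genes most correlated with each member, and others chosen after their values were seen. The authors' other measurements were not analysed here.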

Additional observations from a re-analysis of the deposited data

Results flagged for a closer look

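The ethanol effects in the 2 genotypes differed for 2 members by the interaction test of the edgeR fit. For Nr3c2 the effect in KO minus that in WT mice was -3.15 ± 0.92 (SE, log2), with an effect of 2.87 in WT and -0.28 in KO mice and an edgeR adjusted p of 0.25 for the difference. For Klf9 the difference was -2.07 ± 0.61, from 1.73 in WT and -0.34 in KO mice, at the same adjusted p. In both genes the 3 WT saline libraries lay below the other 9, and both interaction calls were lost when WT saline 1, WT ethanol 4, KO saline 8, KO saline 9 or KO ethanol 12 was left out. With the length and GC trend removed the differences were -1.97 and -1.04 and neither was called.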

How the results depend on the processing

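The 6 contrasts are called WT ethanol and KO ethanol (ethanol against saline in that genotype), saline genotype and ethanol genotype (KO against WT), Treatment and interaction. Called means an edgeR adjusted p under 0.30 unless another tool is named. The cause of the differences given here was not tested. In the fit as reported, 3310 genes were called in WT ethanol, 0 in KO ethanol, 3799 in saline genotype, 0 in ethanol genotype, 1 in Treatment and 1632 in interaction. Genes under an unadjusted p of 0.05 ranged over all alternatives from 1417 to 5582 in WT ethanol, from 48 to 1141 in KO ethanol, from 1647 to 5863 in saline genotype, from 264 to 950 in ethanol genotype, from 376 to 4581 in Treatment and from 1420 to 3538 in interaction. Of 604 log2 values of members under the alternatives other than leaving out 1 library, 508 kept their direction and side of the threshold, 24 were no longer called, 24 became called and 48 turned their sign. Of 720 values with 1 library left out these numbers were 634, 36, 13 and 37.

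With DESeq2, called genes numbered 3 (KO ethanol), 3 (ethanol genotype), 267 (Treatment) and 2678 (interaction), and called members numbered 1 (Treatment). Members under an unadjusted p of 0.05 numbered 1 (ethanol genotype). Reversed values were Fkbp5 -0.0193 (saline genotype), Sgk1 0.0151 (Treatment). With library size and no TMM factors, members under an unadjusted p of 0.05 numbered 0 (KO ethanol), and reversed values were Sgk1 0.31 (WT ethanol), Nr3c1 0.0804, Fkbp5 0.14 and Sgk1 0.26 (Treatment), Sgk1 -0.10, Errfi1 -0.24 and Hif3a -0.22 (interaction). With no low-count filter, called genes numbered 1 (ethanol genotype) and 31 (Treatment). With a minimum of 10 counts per library, called genes numbered 2092 (WT ethanol), and called members numbered 1 (WT ethanol) and 1 (saline genotype). For members the count under an unadjusted p of 0.05 was 1 (WT ethanol), 1 (saline genotype) and 1 (Treatment). Reversed values were Sgk1 0.0906 (Treatment). With the most abundant transcript alone, members under an unadjusted p of 0.05 numbered 0 (KO ethanol), and reversed values were Tsc22d3 -0.95 (WT ethanol), Fkbp5 -0.0357 and Tsc22d3 -0.32 (saline genotype). With limma on log2(RPKM + 1), called genes numbered 356 (WT ethanol), 419 (saline genotype), 0 (Treatment) and 16 (interaction), and called members numbered 1 (saline genotype) and 0 (interaction). Members under an unadjusted p of 0.05 numbered 1 (ethanol genotype). Reversed values were Hif3a -0.10 (WT ethanol), Fkbp5 -0.16 and Pdk4 -0.0904 (saline genotype), Sgk1 0.00586 and Zbtb16 -0.22 (Treatment). With limma on log2(RPKM + 0.1), called genes numbered 185 (WT ethanol), 257 (saline genotype), 1 (ethanol genotype), 0 (Treatment) and 5 (interaction), and called members numbered 2 (saline genotype) and 0 (interaction). Reversed values were Hif3a -0.11 (WT ethanol), Fkbp5 -0.19 (saline genotype), Sgk1 0.00703 and Zbtb16 -0.54 (Treatment). With the name letter as a covariate, called genes numbered 0 (Treatment) and 0 (interaction), and called members numbered 0 (interaction). Reversed values were Nr3c2 0.0035 (KO ethanol), Fkbp5 -0.19 and Pdk4 -0.30 (saline genotype), Sgk1 0.095 (ethanol genotype), Sgk1 0.00984 (Treatment), Hif3a -0.37 (interaction). Without the libraries named with L, called genes numbered 8295 (WT ethanol), 8435 (saline genotype), 6885 (Treatment) and 4322 (interaction), and called members numbered 7 (WT ethanol), 6 (Treatment) and 4 (interaction). For members the count under an unadjusted p of 0.05 was 5 (WT ethanol), 2 (KO ethanol), 6 (saline genotype), 4 (ethanol genotype) and 5 (Treatment). Reversed values were Nr3c1 -0.0182 (WT ethanol), Nr3c1 -0.0302, Fkbp5 -0.0464 and Pdk4 -0.42 (saline genotype), Sgk1 0.000624 (ethanol genotype), Hif3a -0.62 (interaction). With only the groups compared, called genes numbered 39 (WT ethanol) and 2531 (saline genotype), and called members numbered 0 (WT ethanol) and 2 (saline genotype). Members under an unadjusted p of 0.05 numbered 2 (ethanol genotype). Reversed values were Fkbp5 -0.00191 (saline genotype). With the length and GC trend removed, an alternative added after the data were seen, called genes numbered 1614 (saline genotype), 32 (Treatment) and 27 (interaction), and called members numbered 2 (saline genotype) and 0 (interaction). For members the count under an unadjusted p of 0.05 was 0 (KO ethanol) and 1 (interaction). Reversed values were Nr3c1 -0.41, Fkbp5 -0.19 and Hif3a -0.097 (WT ethanol), Nr3c1 0.28, Nr3c2 0.0973 and Klf9 0.19 (KO ethanol), Nr3c1 -0.54, Fkbp5 -0.34 and Pdk4 -0.21 (saline genotype), Nr3c1 0.15 (ethanol genotype), Sgk1 0.0206 and Zbtb16 -0.14 (Treatment), Nr3c1 0.69 (interaction).

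With each library left out in turn, called genes numbered 71 to 7304 (WT ethanol), 0 to 1 (KO ethanol), 9 to 7556 (saline genotype), 0 to 5 (ethanol genotype), 0 to 3493 (Treatment) and 0 to 5064 (interaction). Called members numbered 0 to 6 (WT ethanol), 0 to 6 (saline genotype), 0 to 4 (Treatment) and 0 to 4 (interaction). Members under an unadjusted p of 0.05 numbered 2 to 5 (WT ethanol), 0 to 1 (KO ethanol), 2 to 6 (saline genotype), 0 to 2 (ethanol genotype), 0 to 3 (Treatment) and 2 to 4 (interaction). The log2 ranges were Fkbp5 -0.10 to 0.33, Sgk1 -0.76 to 0.17 and Tsc22d3 -0.22 to 0.27 (WT ethanol), Sgk1 -0.0891 to 0.43 and Pdk4 -0.14 to 0.50 (KO ethanol), Fkbp5 -0.14 to 0.0605, Tsc22d3 -0.0352 to 0.46 and Pdk4 -0.40 to 0.63 (saline genotype), Nr3c2 -1.09 to 0.12, Sgk1 -0.47 to 0.34 and Zbtb16 -0.79 to 0.000924 (ethanol genotype), Fkbp5 -0.26 to 0.0234, Sgk1 -0.28 to 0.17 and Zbtb16 -0.16 to 0.68 (Treatment), Hif3a -0.94 to 1.13 (interaction).

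No paired analysis was possible because the groups share no replicate numbers. The fit of only the groups compared gives no value for Treatment or the interaction, and the strict count minimum leaves out Nr3c2, Fkbp5, Zbtb16, Pdk4, Errfi1 and Hif3a. Depth limits the low members in WT saline 3 and KO ethanol 12, where Pdk4 rests on 1 count each.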
